A study of Mus musculus with 6 samples.

Results

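The Notch segmentation clock genes are 10 genes chosen by name: the ligand genes Dll1 and Dll3, the receptor genes Notch1 and Notch2, the glycosyltransferase gene Lfng, the Hes and Hey target genes Hes7, Hes1, Hey1 and Heyl, and the feedback inhibitor gene Nrarp. All 10 were found among the 35591 rows of the expression table, and all 10 were among the 13617 autosomal genes tested. RNA was sequenced from the tailbud, with its presomitic mesoderm, of FVB/NJ mouse embryos at 8 somites. The 3 wild-type (WT) embryos carried Smchd1 +/+ and the 3 MommeD43 embryos were homozygous for Smchd1 MommeD43. SMCHD1 is a chromatin protein that takes part in gene silencing, and MommeD43 is a missense allele from a chemical mutagenesis screen. The study describes no effect or gain of function, depending on context, except in chromatin conformation, where the allele was closer to a partial loss. Its authors believe that the mutation is neomorphic, with altered function. Replicate 1 of each group was a male, and these 2 embryos shared a mother. Replicates 2 and 3 of each group were females from 4 different mothers. Each library was 1 embryo, so errors and p-values below rest on differences between embryos. Those by limma also draw the variance of each gene toward a trend over all genes of like abundance.

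Notch signalling passes between touching cells. A Delta ligand on one cell binds a Notch receptor on its neighbour, the receptor is cut, and its inner part joins the DNA-binding protein RBPJ to switch on target genes such as those of the Hes and Hey families. In the presomitic mesoderm, Hes7, Lfng and Nrarp are switched on by Notch and then dampen themselves or Notch, so that their transcripts rise and fall together in each cycle that lays down a somite. Cells at one position are in step, and embryos collected at the same somite number can still be at different phases of a cycle.

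The tissue was cut below the last segmented somite so that the next somite to form was left behind. Markers of the presomitic mesoderm and tailbud were high in every library, with a summed level over 7 genes of 513 to 698 RPKM (reads scaled to exon length and to library size) in WT and 494 to 609 in MommeD43. Mesp2, which marks the front of the presomitic mesoderm, had 0 to 3 reads a library, and the somite gene Uncx had none. Other genes of these 2 regions were detected. Epha4 of the front presomitic mesoderm stood at 11.6 to 13.9 RPKM, and the somite genes Meox1 and Foxc2 at 1.2 to 1.75 and 0.962 to 1.96 RPKM. The summed level of 6 somite genes was 3.28 to 4.8 RPKM in WT and 3.66 to 4.49 in MommeD43. A second label calls the source neural stem cells. Of the markers of those cells, Olig1 had no read and Gfap had at most 1 in any library, while Nes stood at 10.4 to 12.1 RPKM, so the material was described here as tailbud. The dissection was not equal in other cells: the summed level of 6 primitive blood genes ran from 8.80 to 484 RPKM in WT and 22.5 to 219 in MommeD43, and that of 5 yolk sac endoderm genes from 98.1 to 200 and from 24.4 to 328. Library totals ran from 10957916 to 47298348 reads. In whole tissue, fewer cells that express a gene and less RNA per cell cannot be told apart.

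The promoters of the 3 feedback genes Hes7, Lfng and Nrarp are shown because these genes are read out by RBPJ and by HES repressors. The windows are from RefSeq on GRCm38.p6, 250 bases before to 50 bases after the start, and lie at chr11:69120203-69120502, chr5:140607091-140607390 and chr2:25180508-25180807, all on the plus strand. Capitals mark the RBPJ motif GTGGGAA on either strand, written TTCCCAC where it lies on the minus strand, and the E-box CACGTG, a sequence that HES proteins can bind.
Hes7: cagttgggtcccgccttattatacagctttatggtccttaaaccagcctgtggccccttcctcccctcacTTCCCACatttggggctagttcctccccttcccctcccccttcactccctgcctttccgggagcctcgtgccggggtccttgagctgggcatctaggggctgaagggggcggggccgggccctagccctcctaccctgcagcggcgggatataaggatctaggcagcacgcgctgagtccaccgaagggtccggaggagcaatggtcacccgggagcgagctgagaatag
Lfng: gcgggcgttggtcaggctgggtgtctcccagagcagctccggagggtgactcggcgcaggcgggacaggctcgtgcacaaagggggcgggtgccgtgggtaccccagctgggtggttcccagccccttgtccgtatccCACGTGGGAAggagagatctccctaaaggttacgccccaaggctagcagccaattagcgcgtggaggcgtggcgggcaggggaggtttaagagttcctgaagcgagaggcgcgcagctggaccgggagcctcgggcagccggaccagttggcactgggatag
Nrarp: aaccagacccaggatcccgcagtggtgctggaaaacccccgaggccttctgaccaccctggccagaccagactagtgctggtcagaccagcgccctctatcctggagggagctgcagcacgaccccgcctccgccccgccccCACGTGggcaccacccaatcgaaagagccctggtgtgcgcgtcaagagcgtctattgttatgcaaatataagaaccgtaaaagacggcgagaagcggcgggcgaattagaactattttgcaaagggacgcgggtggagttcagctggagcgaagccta
The Hes7 window held the RBPJ motif on its minus strand, at position -180 from the start. The Lfng window held the E-box at -112 and the RBPJ motif at -109, and these overlap. The Nrarp window held the E-box at -108. Over all 32851 RefSeq mouse promoter windows of this length, 6.38% held GTGGGAA and 7.15% held CACGTG on either strand. The table gave windows for 7 of the 10 genes (not Hes1, Hey1 or Heyl), with 2 for Dll1. Of these 7 genes, GTGGGAA was found in 2 and CACGTG in 2. The N-box CACNAG, another sequence that HES proteins bind, was found in 6, and 42.5% of all windows held an N-box. These counts are per gene and the shares per window, and Dll1 held its N-box in 1 of its 2 windows. A match is a run of letters and not a measured binding site.

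None of the 10 Notch clock genes passed the test of MommeD43 against WT after adjustment over all genes. The adjusted p of each was 0.999 (limma, Benjamini-Hochberg over 13617 genes), and 0.0% of all genes tested were past 0.05 after adjustment. Without adjustment, 1 of the 10 was under 0.05 in the higher direction by limma (Hes7), against 2.4% of all genes in either direction, 1.42% in the higher and 0.977% in the lower direction. The 2 groups overlapped for all 10 genes, while 7.08% of all genes did not overlap. The log2 fold change was above 0 for 8 of the 10 with a median of 0.14, and it was above 0 for 51.0% of all genes with a median of 0.00. The summed level of the 10 genes was 156, 152 and 145 RPKM in the WT embryos and 175, 163 and 178 RPKM in the MommeD43 embryos. This sum is dominated by its most abundant members and was given no test. Below, values are RPKM in replicates 1, 2 and 3 of a group, folds are MommeD43 over WT on a floored log2 RPKM scale, and ± after a mean is the SD (n = 3).

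**Figure D1:**
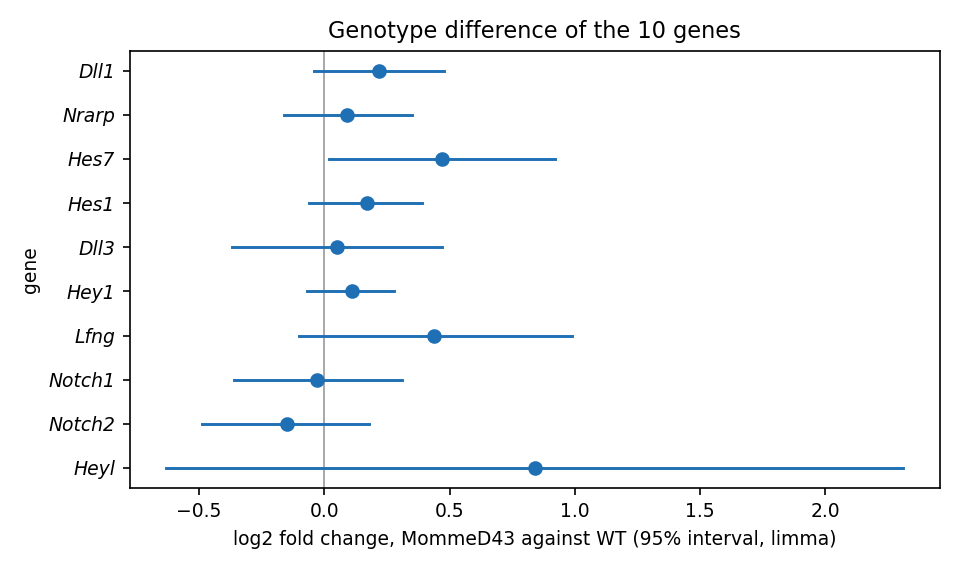
Log2 fold change of MommeD43 over WT for each of the 10 genes (points) with its 95% interval from limma (bars); the vertical line marks no change. The interval of Hes7, 0.02 to 0.92, is the one that leaves out 0, and that of Heyl, -0.63 to 2.31, is the widest.

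Of the ligands, Dll1 encodes the Delta ligand that activates Notch in the presomitic mesoderm (ENSMUSG00000014773, GRCm38 chr17:15367354-15376872, minus strand). Its level was 35.5, 27.0 and 26.0 RPKM in WT and 34.0, 35.7 and 32.3 RPKM in MommeD43. WT replicate 1 stood with the 3 MommeD43 embryos, and the other 2 WT embryos were below all of these. The means were 29.5 ± 5.23 and 34.0 ± 1.69, a log2 fold change of 0.22 ± 0.11 (SE), with unadjusted p = 0.0912 and adjusted p = 0.999 by limma. Without WT replicate 1 the difference was 0.36, with adjusted p = 0.695 by limma, and without WT replicate 3 it was 0.13.

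Dll3 encodes a divergent ligand that acts inside the cell and cannot activate Notch on a neighbour (ENSMUSG00000003436, chr7:28293553-28302238, minus strand). Its level was 21.8, 15.3 and 12.2 RPKM in WT and 16.1, 17.8 and 15.7 RPKM in MommeD43. The 3 MommeD43 embryos lay close together and inside the range of WT, whose replicate 1 was the highest of all 6 embryos and whose replicate 3 was the lowest. The means were 16.4 ± 4.88 and 16.5 ± 1.12, with a log2 fold change of 0.05 and a 95% interval of -0.37 to 0.47. The sign rested on single embryos, since the difference was 0.27 without WT replicate 1, -0.14 without WT replicate 3 and -0.0045 without MommeD43 replicate 2.

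Both ligand genes had an order of embryos near to that of Tbx6, though not the same. Tbx6 is a transcription factor gene of the presomitic mesoderm that acts on Dll1. Tbx6 stood at 48.6, 34.4 and 32.2 RPKM in WT and 36.5, 44.1 and 38.5 RPKM in MommeD43. WT replicate 1 and MommeD43 replicate 2 were the highest for Dll3 and Tbx6 and among the highest 2 for Dll1, and WT replicates 2 and 3 were the lowest for Dll1, Dll3 and Tbx6. The summed level of the 7 presomitic mesoderm and tailbud markers (Tbx6 among them) was also highest in WT replicate 1 and MommeD43 replicate 2, at 698 and 609 RPKM. It was lowest in MommeD43 replicate 1, at 494 RPKM, where both ligand genes stood above WT replicates 2 and 3. The part of these markers in the ligand values was not tested.

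Notch1 encodes the receptor that carries most Notch signal in the presomitic mesoderm (ENSMUSG00000026923, chr2:26457903-26516663, minus strand). Its level was 7.84, 8.18 and 6.39 RPKM in WT and 8.92, 6.46 and 6.73 RPKM in MommeD43. MommeD43 held the highest embryo, and the lowest was WT replicate 3. The log2 fold change was -0.03 ± 0.15 (SE) with a 95% interval of -0.36 to 0.31. It came to 0.01 without WT replicate 1, 0.04 without WT replicate 2, 0.06 without MommeD43 replicate 2 and 0.03 without MommeD43 replicate 3.

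Notch2 encodes a second receptor (ENSMUSG00000027878, chr3:98013527-98150361, plus strand). Its level was 8.05, 8.35 and 6.84 RPKM in WT and 8.47, 5.73 and 6.88 RPKM in MommeD43. The highest and the lowest embryo were both MommeD43, replicates 1 and 2. MommeD43 was lower by a log2 fold change of -0.15 with a 95% interval of -0.49 to 0.18. This change was -0.02 without MommeD43 replicate 2 and -0.30 without MommeD43 replicate 1. Of its exon bases, 5.0% are shared on the same strand with Gm42820, so some reads may belong to that gene.

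The 2 receptor genes had similar levels in each embryo. Their log2 levels differed by 0.01 on average, and this difference had an SD of 0.10 over the 6 embryos. Each gene alone had an SD of 0.22 (Notch1) and 0.23 (Notch2), but between embryos of the same group, which is another measure. Whether the 2 genes moved together was not tested. Endothelial cells also use Notch1, and the summed level of 7 endothelial markers was 23.8, 42.7 and 35.8 RPKM in WT and 44.1, 34.5 and 32.8 RPKM in MommeD43. MommeD43 replicate 1 and WT replicate 2 were the highest 2 for these markers and for both receptors. The match did not hold further down. WT replicate 1 had the lowest marker sum but came next after those 2 for both receptors. WT replicate 3 came next in the marker sum but was the lowest for Notch1. The part of these cells in the receptor values was not tested.

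Lfng encodes Lunatic fringe, a glycosyltransferase that adds sugar to Notch receptors and limits the signal in the clock (ENSMUSG00000029570, chr5:140607320-140615545, plus strand). Its level was 8.13, 10.9 and 13.3 RPKM in WT and 15.3, 10.2 and 18.8 RPKM in MommeD43. MommeD43 replicates 3 and 1 were the highest embryos, while MommeD43 replicate 2 fell below 2 of the 3 WT embryos. The means were 10.8 ± 2.56 and 14.8 ± 4.30, a log2 fold change of 0.44 ± 0.24 (SE), 1.36-fold, with unadjusted p = 0.0974 and adjusted p = 0.999 by limma. The highest embryo rested on 616 reads (95% exact binomial interval of its level 17.3 to 20.3 RPKM) and the lowest on 746 reads (7.56 to 8.74 RPKM). Such intervals cover counting error only. Leaving out MommeD43 replicate 2 gave a log2 fold change of 0.69, and leaving out WT replicate 1 or MommeD43 replicate 3 gave 0.26 and 0.25.

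Lfng was lower in deeper libraries. From the shallowest to the deepest library (MommeD43 1, MommeD43 3, WT 3, WT 2, WT 1, MommeD43 2), its level was 15.3, 18.8, 13.3, 10.9, 8.13 and 10.2 RPKM. Pearson's r of its log2 level with log2 library total was -0.86 (exact permutation p = 0.0278, two-sided, 6 embryos) and Spearman's rho was -0.89 (exact permutation p = 0.0333). Adjusted over the 10 genes by Benjamini-Hochberg, these exact permutation p-values were 0.278 and 0.333 (n = 6). Without the 2 libraries farthest from the median total, r was -0.83. The r over all 6 embryos, -0.86, lay at percentile 0.955 of those of all genes tested. The part of depth in the Lfng difference was not tested.

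Hes7 encodes the transcriptional repressor at the core of the clock, which shuts off its own gene and Lfng (ENSMUSG00000023781, chr11:69120404-69124055, plus strand). Its level was 23.4, 22.2 and 16.8 RPKM in WT and 31.1, 21.0 and 35.4 RPKM in MommeD43. MommeD43 replicates 1 and 3 were above every WT embryo, but MommeD43 replicate 2 was below WT replicates 1 and 2. The means were 20.8 ± 3.53 and 29.2 ± 7.42, a log2 fold change of 0.47 ± 0.20 (SE), 1.38-fold, with unadjusted p = 0.0441 and adjusted p = 0.999 by limma. Its SD between embryos of a group, 0.33 on the log2 scale, was above the 0.08 usual at its abundance. The variance was drawn toward that trend by limma, so this SE and p are smaller than its own spread alone would give. Each value rested on 505 to 1793 reads, and the 95% counting interval was 33.0 to 37.9 RPKM for the highest embryo and 15.4 to 18.3 RPKM for the lowest. With 1 embryo left out, the log2 fold change ran from 0.31 to 0.69, and the unadjusted limma p rose above 0.05 without WT replicate 2, WT replicate 3, MommeD43 replicate 1 or MommeD43 replicate 3.

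The embryos with the most Hes7 also had little blood RNA. The summed level of 6 primitive blood genes was 8.80, 484 and 204 RPKM in WT and 25.4, 219 and 22.5 RPKM in MommeD43. The 3 embryos with the lowest sums, WT replicate 1 and MommeD43 replicates 1 and 3, were the 3 with the highest Hes7. This match rested in part on the order of WT replicates 1 and 2, at 23.4 and 22.2 RPKM of Hes7. Their counting intervals overlapped, at 22.3 to 24.6 and 20.8 to 23.7 RPKM. Yet these 2 embryos held the lowest and the highest blood sum, 8.80 and 484 RPKM. The blood list was not the only marker list summed. The 2 embryos with the most Hes7 held the highest and the lowest yolk sac endoderm sum, 328 RPKM in MommeD43 replicate 1 and 24.4 RPKM in MommeD43 replicate 3. The part of blood RNA in the Hes7 values was not tested.

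**Figure D2:**
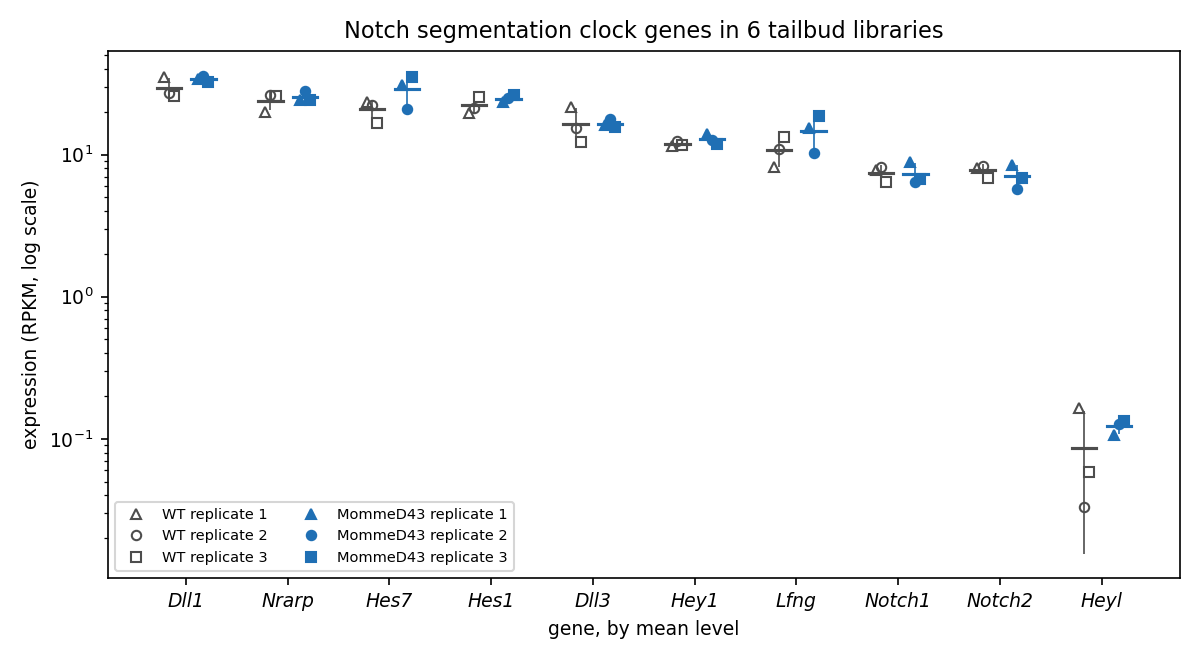
RPKM of each of the 10 genes on a log axis in the 3 WT and 3 MommeD43 embryos (points), with the mean and SD of each group (bars). The groups overlap for every gene; MommeD43 replicates 1 and 3 stand above all WT embryos for Hes7 and Lfng, and Heyl lies far below the other 9 genes.

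Hes1 encodes a repressor of the same family that many Notch-active tissues express (ENSMUSG00000022528, chr16:30064384-30067796, plus strand). Its level was 19.7, 21.4 and 25.5 RPKM in WT and 23.3, 24.9 and 26.1 RPKM in MommeD43. WT replicate 3 lay among the MommeD43 embryos and the other 2 WT embryos lay below them. The log2 fold change was 0.17 ± 0.10 (SE), with unadjusted p = 0.122 and adjusted p = 0.999 by limma.

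Hey1 encodes a Hes-related repressor found in vessels and in the paraxial mesoderm (ENSMUSG00000040289, chr3:8663359-8667256, minus strand). It was the steadiest of the 10 genes, at 11.5, 12.4 and 11.7 RPKM in WT and 13.9, 12.7 and 11.9 RPKM in MommeD43. MommeD43 replicate 3 lay inside the WT range and the other 2 MommeD43 embryos above it. Its log2 fold change was 0.11 with a 95% interval of -0.07 to 0.28.

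Heyl, a relative of Hey1, was barely detected (ENSMUSG00000032744, chr4:123233556-123249875, plus strand). It had 31, 4 and 5 reads in WT and 6, 31 and 9 reads in MommeD43, or 0.166, 0.0331 and 0.0588 RPKM and 0.107, 0.128 and 0.134 RPKM. All 3 MommeD43 embryos lay between WT replicate 1 and the other 2 WT embryos. It passed the filter on low values through all 3 MommeD43 libraries and 1 WT library, and its log2 fold change of 0.84 had a 95% interval of -0.63 to 2.31. It was 0.05 on the log2(RPKM + 1) scale, 0.31 without WT replicate 2 and 1.47 without WT replicate 1.

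Nrarp encodes a small ankyrin-repeat protein that dampens Notch signalling and is itself a Notch target (ENSMUSG00000078202, chr2:25180758-25183339, plus strand). Its level was 20.1, 26.2 and 25.9 RPKM in WT and 24.1, 28.0 and 24.4 RPKM in MommeD43. WT replicate 1 was the lowest embryo, MommeD43 replicate 2 was the highest, and the other 4 were mixed. The log2 fold change was 0.09 ± 0.11 (SE), with adjusted p = 0.999 by limma, and it was -0.03 without WT replicate 1. Whether the counting used strand was not given in the sources used here, and 79.4% of the Nrarp exon bases lie opposite Gm38287, which had 12 reads in all 6 libraries together against 9537 for Nrarp. The antisense partners of Hes7 (9130213A22Rik) and Dll1 (A930024N18Rik) had 30 and 19 reads in all.

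The genotype effect in females was also set against that in the male pair. With 1 male a group, the spread behind this test comes from the 4 females alone, with 2 residual degrees of freedom. Dll3 had a log2 fold change of -0.43 among males and 0.29 among females, a difference of 0.73 ± 0.21 (SE), with unadjusted p = 0.0108 and adjusted p = 0.314 by limma. That of Dll1 was -0.06 and 0.36, a difference of 0.42 ± 0.12 (SE), with unadjusted p = 0.0113 and adjusted p = 0.314 by limma. No member was past an adjusted p of 0.05 in this test, against 0.272% of all genes. For the unadjusted p, 10.8% of all genes were under 0.05. Hes7 had log2 fold changes of 0.41 among males and 0.50 among females, and Lfng 0.92 and 0.21. Since the males were also littermates, sex and litter cannot be told apart.

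On a scale per length of transcript, mean levels of the 10 genes ran from 31.7 to 0.105 RPKM. Dll1 was the most abundant, at 31.7 ± 4.25 RPKM (SD, n = 6). Nrarp at 24.8 ± 2.69, Hes7 at 25.0 ± 6.92 and Hes1 at 23.5 ± 2.51 followed, then Dll3 at 16.5 ± 3.16, Hey1 at 12.3 ± 0.867 and Lfng at 12.8 ± 3.86. Notch1 at 7.42 ± 1.04 and Notch2 at 7.39 ± 1.08 were lower, and Heyl was last at 0.105 ± 0.0498. The order is by mean log2 RPKM over all 6 embryos.

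Neighbours in this order were compared within embryos by an exact sign-flip permutation test, whose smallest two-sided p with 6 embryos is 0.0312. For the pairs that reached it here, the exact permutation p after Benjamini-Hochberg adjustment over the 9 pairs was 0.0703. Dll1 was above Nrarp by 0.35 on the log2 scale, Dll3 above Hey1 by 0.40, Lfng above Notch1 by 0.74 and Notch2 above Heyl by 6.32, each in 6 of 6 embryos and each at that smallest exact permutation p. Hes1 was above Dll3 by 0.53 in 5 of 6 embryos (exact permutation p = 0.0625, adjusted p = 0.113). Nrarp and Hes7, Hes7 and Hes1, Hey1 and Lfng, and Notch1 and Notch2 differed by 0.05 or less on the log2 scale. The first of each pair was higher in 3, 4, 3 and 2 of 6 embryos, and each of these pairs had an adjusted exact permutation p of 0.969 over 6 embryos.

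With all 6 embryos, the spread between embryos of the same genotype was larger for Hes7, Lfng and Dll3 than for the other well-detected members. The SD of the log2 level between embryos, pooled over both groups, was 0.33 for Hes7, 0.40 for Lfng and 0.31 for Dll3. At their abundance, the trend over all genes gave an SD of 0.08, 0.10 and 0.09, so these 3 genes had 4.0, 4.11 and 3.36 times the spread usual for genes as abundant. In that ratio they stood at percentiles 98.9, 98.9 and 98.1 of all genes tested. Since limma draws variance toward this trend, its SE for these 3 genes is smaller than their own spread alone would give.

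The other members were closer to the trend. Dll1 (ratio 2.27), Nrarp (2.11), Notch2 (1.94), Notch1 (1.92) and Hes1 (1.74) had percentiles from 86.1 to 93.9. Heyl had a ratio of 1.16, since a large spread is usual with so few reads, and Hey1 had 0.898, at percentile 41.8. Single embryos moved these ratios. Leaving out WT replicate 1 gave 0.881 for Dll1 and 1.36 for Nrarp, and leaving out WT replicate 3 gave 0.96 for Hes1. Likewise, with 1 left out, that of Hes7 fell to 2.57 (without MommeD43 replicate 2), that of Lfng to 3.08 (without MommeD43 replicate 2) and that of Dll3 to 1.88 (without WT replicate 1). The ranking by SD was then lost: without WT replicate 1 the SD was 0.15 for Dll3 against 0.25 for Notch1 and 0.26 for Notch2, and without MommeD43 replicate 2 it was 0.22 for Hes7 against 0.23 for Notch1. These values are a description of 6 embryos with no test. Across all 6, the highest level was 2.11 times the lowest for Hes7, 2.31 times for Lfng and 1.78 times for Dll3, against 1.21 times for Hey1.

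**Figure D3:**
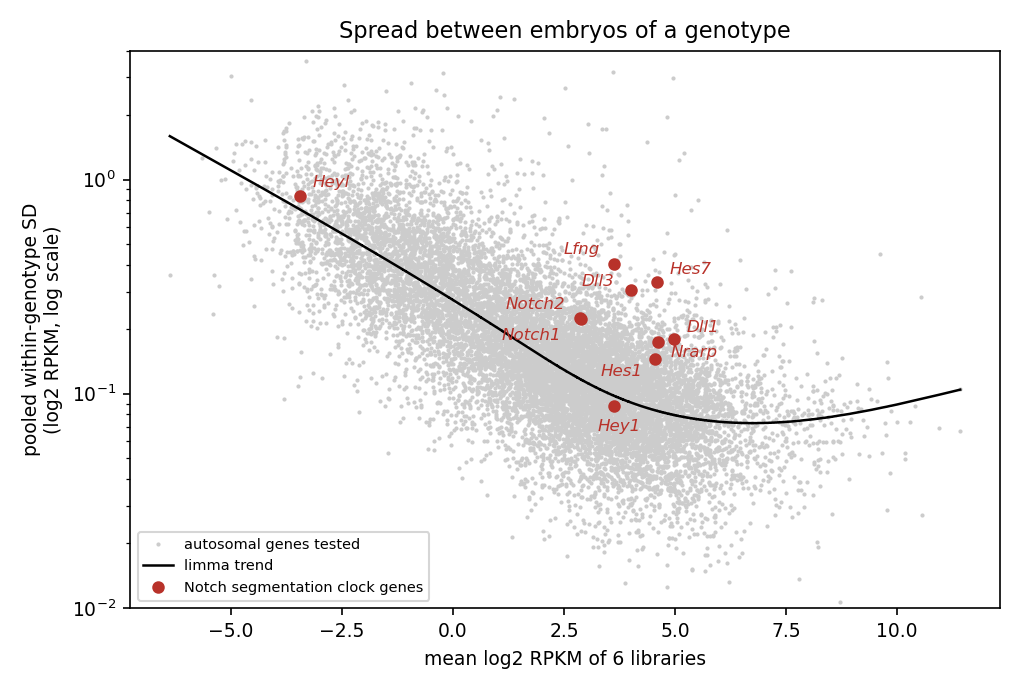
Pooled SD of log2 RPKM between embryos of the same genotype against mean log2 RPKM, for all genes tested (grey) with the trend over genes (line) and the 10 genes (labelled). Hes7, Lfng and Dll3 stand above the trend at 4.0, 4.11 and 3.36 times its value, and Hey1 lies close to it.

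Whether the other members followed Hes7 from embryo to embryo was asked by correlating log2 levels over the 6 embryos. Lfng had the highest Pearson's r with Hes7, 0.58 (rho 0.49), with an exact permutation p of 0.236 and an adjusted p of 0.684 over the 9 genes. The relation rested on 2 embryos: without MommeD43 replicates 1 and 3, the farthest from the median of Hes7, r was -0.89 over the other 4. Those 2 embryos were the highest for both genes. With 1 embryo left out, r of Lfng ran from 0.21 (without MommeD43 replicate 3) to 0.89 (without WT replicate 3), and it was not the highest of the 9 without MommeD43 replicate 3, where Notch1 had 0.87 and Hey1 0.73, nor without MommeD43 replicate 2, where Dll1 had 0.68 and Lfng 0.55. From deviations within groups, Notch2 had the highest r, 0.76, and Lfng had 0.35. Nrarp had an r of -0.29 with Hes7 (rho -0.60), Dll1 0.48 (0.20), Dll3 0.28 (0.31), Notch1 0.39 (0.60) and Notch2 0.28 (0.54). Hes1 had 0.09 (0.03), Hey1 0.34 (0.14) and Heyl 0.44 (0.49). None of the 9 had an adjusted exact permutation p under 0.05 over the 6 embryos, for r or for rho.

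**Figure D4:**
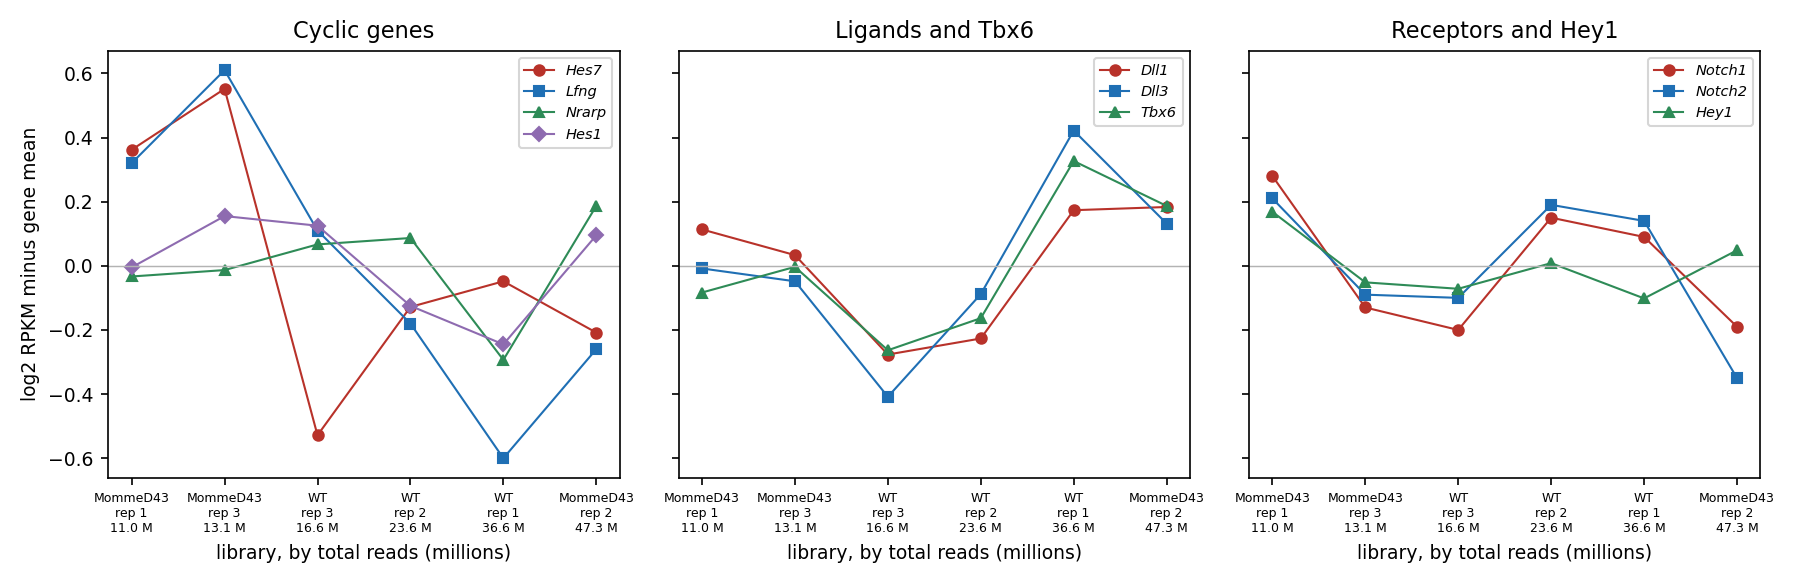
Log2 RPKM of 9 members (all but Heyl) and Tbx6 relative to each gene's mean over the 6 embryos, with embryos ordered by library total from the shallowest to the deepest; lines join the values of 1 gene and imply no series in time. Lfng is higher in the 3 shallowest libraries than in the 3 deepest, and Hes7 is high in the 2 shallowest, MommeD43 replicates 1 and 3.

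The genes with the highest r with Hes7 over the 6 embryos were not Notch genes. By Pearson's r of log2 level they were Dmrta2 (0.995), Dhrs13os (0.992), Cmss1 (0.989), Timm23 (0.986) and Acad9 (0.981), out of 13616 genes. With 6 embryos such values are common, and 161 genes (1.18%) had an r of at least 0.9. Lfng stood at rank 2087 in this order and Nrarp at rank 9161.

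The rest of the Notch pathway gave no call. Of 45 other genes in 6 lists, 43 were tested and Hes2 and Dlk1 were not, since neither had a read. By limma, no gene of these was past an adjusted p of 0.05 and a single one (1) had an unadjusted p under 0.05, against 2.4% of all genes. The groups did not overlap for 4 of them, against 7.08% of all genes, and the median log2 fold change was -0.01 with 19 above 0 and 24 below. The 1 was Notch3, a receptor gene, at 12.3, 13.5 and 11.6 RPKM in WT and 10.7, 10.5 and 11.0 RPKM in MommeD43. Each MommeD43 embryo was below each WT embryo, for a log2 fold change of -0.21 ± 0.07 (SE), unadjusted p = 0.0195 and adjusted p = 0.999 by limma. The other genes without overlap were Psen2, Psenen and Spen, of which Psenen was named after its values were seen.

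Within those lists, the smallest p in each direction went to the following genes, none with an adjusted p under 0.05. The ligand gene Dll4 had a log2 fold change of 0.20, the Hes genes Hes6 and Hes5 0.18 and -0.06, and the fringe gene Rfng 0.21. Mib1, whose product helps ligands to be taken up, had -0.18, and the receptor cleavage genes Aph1a and Psen2 had 0.11 and -0.28. Snw1 and Spen, whose products work with RBPJ, had 0.03 and -0.20, and Dtx2 and Itch, which act in Notch turnover, had 0.05 and -0.09.

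The Wnt and FGF arms of the clock gave no call either. Of 9 cyclic genes linked to Wnt, 2 had a log2 fold change above 0 and 7 below. Of 7 linked to FGF, 6 were above 0 and 1 below. The medians were -0.02 and 0.06, and 51.0% of all genes were above 0. Efna1 was the 1 of these 16 with an unadjusted p under 0.05 by limma, against 2.4% of all genes, and after adjustment there was none. Efna1, an ephrin ligand gene, stood at 29.7, 26.5 and 28.5 RPKM in WT and 32.9, 31.9 and 36.0 RPKM in MommeD43. Its groups did not overlap, which held for 1 of the 16 and for 7.08% of all genes. The log2 fold change was 0.25 ± 0.07 (SE), with unadjusted p = 0.00584 and adjusted p = 0.999 by limma. In the other direction, Axin2, a feedback inhibitor of Wnt signalling, had -0.08 and Bcl2l11 had -0.05, and Lef1 led the Wnt list upward with 0.07.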

How the data were processed

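Tailbud RNA of 6 embryos was sequenced from a stranded mRNA library kit. Per the labels and the study's methods, the authors trimmed reads with Trim Galore 0.4.4, mapped them to GRCm38.p6 with HISAT2 2.0.5 and deposited log2 RPKM values from SeqMonk, with an authors' mean per group that was not used here. The annotation release was not given in the sources used here. The values were reduced to whole reads: 99.0% of 105978 values above the floor came out whole within 0.02 reads. The floor of an undetected gene was 0.9 read.

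Identifiers were matched to GENCODE M21 (35555 of 35591). Autosomal genes were tested if their CPM in at least 3 libraries was no lower than 10 reads would give at the median library total, and if the 6 libraries summed to 15 reads or more. Floored log2 RPKM was tested with limma 3.58.1 (variance trend with abundance, R 4.3.3) with Benjamini-Hochberg adjustment, since the study's methods state no test for these libraries. The procedure was tested on simulated data. The alternatives were other scalings, a pseudocount of 1 RPKM, no filter, voom on recovered reads, sex as a covariate, females alone, a replicate block and leaving out each embryo. The correlation with depth was added after seeing the data.

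The 10 genes and all lists were chosen with earlier results of these data known. Genes named beside them were, in each list, the smallest p in each direction, the 5 with the highest r with Hes7, and markers given beside a result. Exact permutation tests used SciPy 1.17.1.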

Additional observations from a re-analysis of the deposited data

How the results depend on the processing

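Under all 14 alternatives none of the 10 genes passed an adjusted p of 0.05 by limma. The number at an unadjusted p under 0.05 was 1 (Hes7) in the reported analysis and under other scalings, the pseudocount, no filter and sex as a covariate. It was 0 with voom on the recovered reads, and 3 in females alone (Dll1, Dll3 and Heyl), where 8.72% of all genes were under 0.05. With 1 embryo left out it was 0 to 4: 4 without WT replicate 1 (6.93% of all genes), 2 without WT replicate 3 (Lfng and Hes1, 1.37%) or MommeD43 replicate 2 (3.12%), and 0 without WT replicate 2 or MommeD43 replicates 1 or 3. The number without overlap between groups was 0, but 3 in females alone, where 42.0% of all genes did not overlap, and 0 to 3 with 1 embryo left out, where 12.4% to 26.5% did not (3 without WT replicate 1, at 26.5%).

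With the replicate number as a block the number at an unadjusted p under 0.05 was 0. Same-numbered embryos did not deviate together (correlations of -0.026, 0.167 and -0.173), so the numbers were not read as pairs.

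With 1 embryo left out, the log2 fold change ran from -0.03 to 0.16 for Nrarp, -0.17 to 0.06 for Notch1 and -0.14 to 0.27 for Dll3, and direction changed for these 3: Nrarp was -0.03 without WT replicate 1, Notch1 was 0.01, 0.04, 0.06 and 0.03 without WT replicates 1 and 2 and MommeD43 replicates 2 and 3, and Dll3 was -0.14 and -0.0045 without WT replicate 3 and MommeD43 replicate 2. Pearson's r with Hes7 ran from -0.40 to 0.49 for Dll3, -0.08 to 0.73 for Hey1 and -0.38 to 0.49 for Hes1. It became -0.40 for Dll3 without WT replicate 3, -0.08 for Hey1 without MommeD43 replicate 1 and -0.38 for Hes1 without MommeD43 replicate 3. From deviations within groups it was -0.46 for Hes1, -0.08 for Hey1, 0.76 for Notch2, -0.67 for Nrarp and 0.15 for Dll1. The cause of these changes was not tested. Heyl, at 4 to 31 reads, is limited by depth.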

Other observations

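Other genes of the tailbud differed between single embryos. Noto, a transcription factor gene of the node and notochord, had 202, 211 and 166 reads in WT and 92, 392 and 2 reads in MommeD43, or 3.44, 5.58 and 6.23 RPKM and 5.24, 5.17 and 0.0954 RPKM. MommeD43 replicate 3 was far below the other embryos for Noto, while Shh in the same embryo stood at 3.46 RPKM against 2.70 to 5.11 RPKM in the other 5. Mesp1, a gene of early and anterior presomitic mesoderm, stood at 2.42, 0.598 and 0.142 RPKM in WT and 0.930, 0.580 and 3.12 RPKM in MommeD43, with 3 to 113 reads a library. WT replicate 1 and MommeD43 replicate 3 were its highest embryos. Hes5, a Notch target best known from the neural tube, stood at 15.3 RPKM in WT replicate 3 and 6.49 to 9.57 RPKM in the other 5 embryos. All of these genes were picked out from their values, and the differences between single embryos have no test.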
